A study of Mus musculus with 6 samples.

Results

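Immediate early genes are transcribed within minutes of a stimulus from factors already present in the cell, without new protein synthesis. The 10 described here are *Fos*, *Fosb*, *Jun*, *Junb*, *Jund*, *Egr1*, *Ier2*, *Nr4a1*, *Dusp1* and *Atf3*, taken by symbol from a list of immediate early genes known to respond to tissue handling and acute signals. All 10 were found among the 19831 genes of the deposited table. The tissue was inguinal adipose tissue (iAT) of mice at postnatal day 6, with 3 wild-type (WT) samples and 3 samples labelled knockout (KO) for *Npffr1*, the gene of neuropeptide FF receptor 1. Apart from the genotype the 6 samples carry the same labels and no treatment. How the deletion was made, which cells it covers, the strain, sex and litter of the samples, and whether a sample is a single animal are not given in the labels. The comparison asks which transcripts of young iAT differ when the receptor is missing.

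The proteins of *Fos*, *Fosb*, *Jun*, *Junb*, *Jund* and *Atf3* are basic leucine zipper factors that pair with each other in the AP-1 family and bind DNA as dimers. *Egr1* encodes a zinc finger factor, *Nr4a1* an orphan nuclear receptor, *Ier2* a nuclear protein of the early response, and *Dusp1* a phosphatase that switches off MAP kinases and so ends the signal that induced it. In adipose tissue such genes are known to respond to growth factors, to cyclic AMP raised by sympathetic nerves, to inflammatory signals, and to the cutting and warming of tissue during collection, and their mRNAs are short lived.

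The table holds 1 value per gene and genotype, on the scale of reads normalized for library size, so no spread between samples stands behind any value of the 10 genes. These values are not plain means of 3 libraries. Among genes with few reads that were past 1.5-fold and higher in KO, whose reads were worked out as described further on, the WT and KO values lay closer together than the means of the reads in 82 of 83, and how far this holds for the 10 early genes is not known. Ratios of KO to WT are therefore given without an error and without a test, and whether a difference exceeds the spread between replicates was not tested. The values of all genes add up to 23137343 normalized counts in WT and 23640005 in KO. Counting error alone, as a 95% Wilson interval of the ratio that takes 3 times each value as its reads, would be between 0.024 and 0.20 on the log2 scale on either side for the 10 genes, and it covers counting error only. The targeted gene checks the labels weakly. Its deposited values were 1.12 in WT and 0.855 in KO, and the reads behind them were 6 in the WT libraries together and 0 in the KO libraries, where a count of 0 allows up to 3. WT library c held 5 of the 6 reads, and without it 1 read was left in WT. Adipocyte markers were abundant in both genotypes, *Fabp4* with 156285 and *Lpl* with 136814 normalized counts in WT, as the tissue label has it.

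Promoters of the 10 genes were read from the RefSeq table of the mouse build GRCm38.p6, which held 8 of them and lists 250 bases before to 50 bases after the start. The core of the cyclic AMP response element, TGACG, was present on either strand in 6 of the 8, in *Fos*, *Fosb*, *Junb*, *Nr4a1*, *Dusp1* and *Atf3*, and in 20.8% of all 32851 promoters of that length. The whole palindrome TGACGTCA, which contains this core on both strands, was found in *Dusp1* and in 1.79% of all promoters. The AP-1 site TGANTCA occurred in 0 of the 8 and in 7.81% of all, and the CArG box of serum response factor in 0 of the 8 and in 1.63% of all. The letters TATAAA were found in *Fos* and *Junb* (13.6% of all promoters), and GCGNGGGCG, the Egr site, in *Fosb* and *Nr4a1* (5.55% of all). TATAAA began at -33 from the start in *Fos*. In *Junb* it began at 1, beyond the 250 bases before the start. A match is a description of these letters in this window, and no binding was measured here. Bases outside the window, and the promoters of *Egr1* and *Ier2*, which are not among the 8, were not searched. The 250 bases before the start of 5 of the genes are printed because they hold the core in differing number and place, with each TGACG, read on either strand, in capitals. They lie at chr12:85473640-85473889 on the plus strand for *Fos*, chr7:19310046-19310295 on the minus strand for *Fosb*, chr8:84978749-84978998 on the minus strand for *Junb*, chr15:101266596-101266845 on the plus strand for *Nr4a1*, and chr17:26508473-26508722 on the minus strand for *Dusp1*.

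Fos: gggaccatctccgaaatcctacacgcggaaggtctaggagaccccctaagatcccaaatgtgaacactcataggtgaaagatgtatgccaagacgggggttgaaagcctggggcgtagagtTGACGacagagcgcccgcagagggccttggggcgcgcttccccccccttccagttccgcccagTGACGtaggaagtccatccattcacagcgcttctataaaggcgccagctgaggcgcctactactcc

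Fosb: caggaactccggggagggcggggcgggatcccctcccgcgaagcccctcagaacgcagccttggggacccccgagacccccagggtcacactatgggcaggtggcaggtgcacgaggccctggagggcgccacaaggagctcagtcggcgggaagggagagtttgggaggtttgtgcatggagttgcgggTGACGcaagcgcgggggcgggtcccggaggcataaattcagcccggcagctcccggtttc

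Junb: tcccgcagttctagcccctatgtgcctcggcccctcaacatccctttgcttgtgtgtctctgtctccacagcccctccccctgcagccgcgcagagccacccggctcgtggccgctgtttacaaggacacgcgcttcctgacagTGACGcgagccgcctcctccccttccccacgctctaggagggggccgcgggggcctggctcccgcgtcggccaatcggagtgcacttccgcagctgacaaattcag

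Nr4a1: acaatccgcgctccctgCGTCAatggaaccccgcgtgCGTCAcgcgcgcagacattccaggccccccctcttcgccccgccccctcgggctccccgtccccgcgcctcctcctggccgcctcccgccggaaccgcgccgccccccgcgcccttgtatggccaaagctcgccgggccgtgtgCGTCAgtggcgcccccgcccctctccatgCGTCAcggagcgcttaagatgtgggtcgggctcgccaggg

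Dusp1: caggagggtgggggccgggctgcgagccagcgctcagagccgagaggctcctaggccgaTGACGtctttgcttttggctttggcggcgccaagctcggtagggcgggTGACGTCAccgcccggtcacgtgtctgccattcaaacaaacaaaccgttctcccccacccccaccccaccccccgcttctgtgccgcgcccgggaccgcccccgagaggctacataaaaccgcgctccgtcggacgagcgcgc

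Counted from the start, the core began at -129 and -66 in *Fos*, at -60 in *Fosb* and at -106 in *Junb*. *Nr4a1* held 4 copies, all on the opposite strand, at -233, -213, -69 and -40. *Dusp1* held 3, at -191, -143 and -140, of which the last 2 form the palindrome. In *Atf3*, not printed, the core began at -7. *Jun* and *Jund* held none in this window.

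Per kilobase of the listed gene length, the early genes of WT iAT ranged from 58.4 to 2705 normalized counts per kilobase. *Jund* was the highest with 2705, followed by *Egr1* with 2470, *Fos* with 2289, *Jun* with 1791, *Junb* with 1607, *Ier2* with 1280, *Dusp1* with 1103 and *Fosb* with 999 normalized counts per kilobase. *Nr4a1* was lower with 349, and *Atf3* lay far below the others with 58.4. Per kilobase, *Jund* was above 97.0% of the 19831 listed genes and *Fosb* above 90.3%, whereas *Nr4a1* exceeded 73.9% and *Atf3* 42.4%. In KO the order was led by *Egr1* with 3914 and *Jund* with 3798, *Junb* with 3121 stood before *Jun* with 2851, and *Fosb* with 1817 before *Dusp1* with 1812 normalized counts per kilobase, so that 6 of the 10 genes changed places with a neighbour. Without a spread over samples, neighbours in this order cannot be called different. The order also rests on the listed lengths, which are 3072 bases for *Egr1* and 2894 for *Jund*. Their longest coding transcripts in the GENCODE M21 annotation have 4484 and 1668 bases, and the order was not worked out with those lengths.

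All 10 early genes had a higher value in KO than in WT. Their log2 ratios of KO to WT lay between 0.49 for *Jund* and 0.96 for *Junb*, with a median of 0.69, a fold of 1.62. Among the 15309 genes whose WT and KO values averaged 10 normalized counts or more, which include all 10, the median log2 ratio was 0.01 and 51.2% were higher in KO. Taking a difference of at least 1.5-fold as the mark, 8 of the 10 were past it and higher in KO, against a background of 2.78% of the 15309 genes, and 0 were past it and lower, against 3.12%. *Fos*, with a log2 ratio of 0.57, and *Jund* were just short of it, and *Atf3*, with 0.59, was just past it. At a ratio of 5 to 4 all 10 were past the mark and higher (background 12.0%) and 0 lower (11.6%), and at 2-fold 0 were past it in either direction (0.483% higher and 0.314% lower). The 10 genes and the lists used further on were chosen with earlier results of these data known, so these counts are not a test. Together the 10 genes took 0.163% of all normalized counts in WT and 0.256% in KO. The count of genes past 1.5-fold depended on what the genotypes were scaled to, and fell from 8 to 0 when both were set to the reference genes *Actb*, *Gapdh* and *Ppia*, as given further on. In whole tissue, more cells that express a gene and more RNA of it per cell cannot be told apart.

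**Figure D1:**
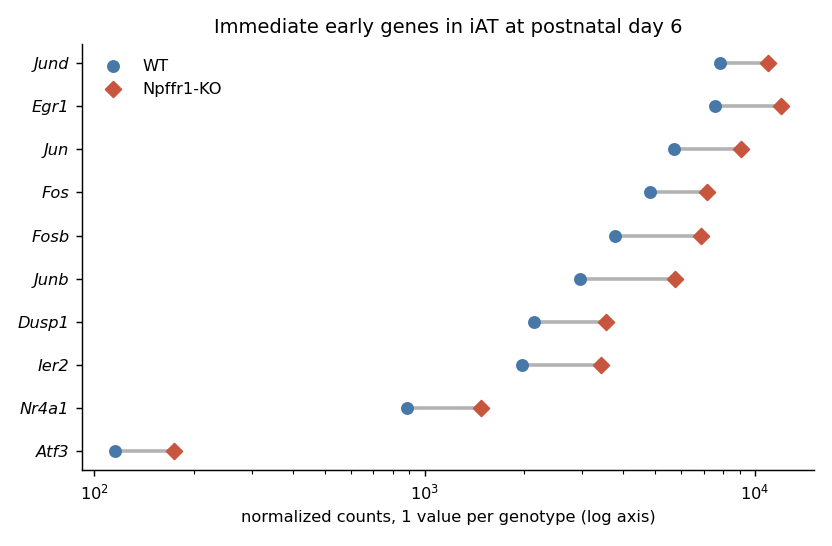
Normalized counts (horizontal log axis) of the 10 immediate early genes in iAT at postnatal day 6, with the authors' single value for WT as a circle and for KO as a diamond. Each KO value lies to the right of its WT value, from *Atf3* with 116 and 174 to *Egr1* with 7589 and 12022 normalized counts, and no error bars are drawn since the table holds no value per sample.

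The FOS side of AP-1 was represented by 2 genes. *Fosb* had 3781 normalized counts in WT and 6875 in KO, a log2 ratio of 0.86 (1.82-fold), and 123 of the 15309 genes had a ratio at least as high. *Fos*, the founding gene of the family, had 4823 in WT and 7144 in KO, a log2 ratio of 0.57 (1.48-fold), which 3.06% of the genes reached. Per kilobase, *Fos* was the higher of both in either genotype. Their relative *Fosl2* was at 1135 and 1090, with a log2 ratio of -0.06, and *Fosl1* was close to absent with 2 reads over the 6 libraries.

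The JUN side carried both ends of the range. *Junb* had 2957 normalized counts in WT and 5742 in KO, the highest log2 ratio of the 10 at 0.96 (1.94-fold), reached by 84 of the 15309 genes. *Jun*, which pairs with FOS proteins and with itself, had 5709 in WT and 9085 in KO, a log2 ratio of 0.67 (1.59-fold). *Jund*, known as the most steadily expressed of the JUN genes, had 7828 in WT and 10990 in KO, the lowest log2 ratio at 0.49, which 4.59% of the genes reached. *Atf3*, a stress-induced factor that pairs with JUN proteins, was the lowest of the 10 genes with 116 in WT and 174 in KO, a log2 ratio of 0.59.

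*Egr1*, which per kilobase of the listed length was the highest of the 10 in KO, had 7589 normalized counts in WT and 12022 in KO, a log2 ratio of 0.66 (1.58-fold). *Nr4a1* had 884 in WT and 1480 in KO, a log2 ratio of 0.74 (1.67-fold). *Ier2* had 1972 in WT and 3426 in KO, and its log2 ratio of 0.80 (1.74-fold) was the third highest of the 10. *Dusp1*, the phosphatase, had 2152 in WT and 3538 in KO, a log2 ratio of 0.72 (1.64-fold). Between 1.06% (*Ier2*) and 1.89% (*Egr1*) of the 15309 genes reached the ratios of these 4 genes.

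**Figure D2:**
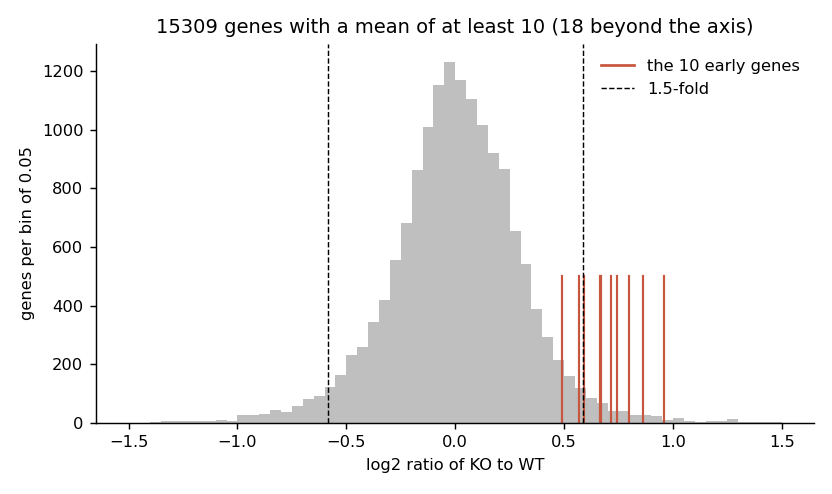
Histogram of the log2 ratio of KO to WT over 15309 genes averaging 10 normalized counts or more (bins of 0.05, 18 genes lie beyond the axis), with vertical lines for the 10 early genes and dashed lines at 1.5-fold. The 10 lines stand in the right flank, between 0.49 and 0.96, where few genes lie.

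By the GENCODE M21 annotation, *Jun*, *Junb*, *Jund* and *Ier2* have a single exon in their longest coding transcript, *Egr1* has 2, *Fos*, *Fosb*, *Dusp1* and *Atf3* have 4, and *Nr4a1* has 8. Both the highest ratio, of *Junb*, and the lowest, of *Jund*, belonged to genes with 1 exon. *Junb* overlaps *Prdx2* and *Dusp1* overlaps *Ergic1*, both on the opposite strand. *Jun* and *Jund* each overlap an antisense gene. Whether the authors' counting used the strand is not given in the sources used here, so reads of such partners cannot be told apart from those of the early genes. *Prdx2* had 3661 normalized counts in WT and 4772 in KO, a log2 ratio of 0.38, and *Ergic1* had 3001 and 3165, a log2 ratio of 0.08, both below the ratio of the early gene they overlap.

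Relatives of the 10 genes, taken from lists of the same families, had lower median ratios. The shares of all 15309 genes were 51.2% higher in KO, 2.78% past 1.5-fold and higher, and 3.12% past it and lower. In lists this short, a count of 0 past the mark is near these shares. Of 7 other AP-1 genes with a mean of at least 10, 0 passed 1.5-fold in either direction, 3 were higher and 4 lower in KO, and the median log2 ratio was -0.04. *Atf7* had 2305 in WT and 1922 in KO and *Atf2* 1231 and 1169, the most abundant of them. *Batf*, a lymphocyte partner of JUN proteins, had the highest ratio of this list at 0.51. Of 6 other Egr, Nr4a and Nab genes 0 passed, with a median of 0.21. *Egr2* and *Egr3* had log2 ratios of 0.46 and 0.38, against 0.66 for *Egr1*, and *Nr4a2* and *Nr4a3* had -0.07 and 0.27, against 0.74 for *Nr4a1*. *Nab1* and *Nab2*, which encode repressors of EGR proteins, had 1680 and 846 in WT and 1538 and 940 in KO. Of 14 other Dusp, Spry and Spred genes, which encode brakes of MAP kinase signalling, 0 passed, with a median of 0.06. *Dusp6* had 1490 and 1732, *Dusp7* 1481 and 1528, and the highest ratio among them was 0.55 for *Dusp2*. *Fosl2*, *Batf*, *Dusp2* and the Egr and Nr4a relatives were chosen for naming after their values were seen.

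The median ratio of a wider list of early response genes stood between those of the 10 and of these relatives. Of 42 listed, 41 had a mean of at least 10, of which 34 were higher and 7 lower in KO, 11 were past 1.5-fold and higher and 0 past it and lower, with a median log2 ratio of 0.34. Over all 15309 genes, 51.2% were higher in KO, 2.78% were past the mark and higher and 3.12% past it and lower. The highest ratio was that of *Cxcl1*, a chemokine gene, with 87.1 normalized counts in WT and 209 in KO (2.40-fold). *Gadd45b*, a stress and growth arrest gene, had 577 and 1180 (2.04-fold), and *Arc*, an activity-regulated gene best known from neurons, had 149 and 302 (2.02-fold). *Ier3* had 196 and 355, *Ppp1r15a*, which encodes a phosphatase subunit of the stress response, had 1139 and 2019, and *Ptgs2*, the inducible cyclooxygenase gene, 8.13 and 14.4. The most abundant of the list, *Zfp36l1* and *Btg1*, had log2 ratios of only 0.07 and 0.31. Among the 7 that were lower in KO, *Per1*, a clock gene, had the lowest ratio at -0.49, and *Klf10* had -0.39, both named after their values were seen.

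The kinases and factors that act on early genes were near even. Of 24 listed, 10 were higher and 14 lower in KO, 0 passed 1.5-fold, and the median log2 ratio was -0.05. Among all 15309 genes, 51.2% were higher in KO, 2.78% were past the mark and higher and 3.12% past it and lower. For lists as short as those of this paragraph, 0 past the mark is near these shares. *Mapk3*, which encodes ERK1, had 5757 in WT and 5856 in KO, and *Elk3*, a partner of serum response factor, had 3985 and 3293. Heat shock genes, which also respond to the handling of tissue, were higher in KO in 11 of 12 cases, with a median log2 ratio of 0.39, and 0 passed 1.5-fold. Their median was 0.29 when centred on genes of like length. It was -0.02 when both genotypes were set to *Actb*, *Gapdh* and *Ppia*, as given further on. *Hspa8* had 33408 and 39923, and *Hsp90ab1* 29125 and 35513 normalized counts. The ratios of *Hspa1a* (0.47) and *Hspa1b* (0.42), named after their values were seen, are uncertain, since both genes are near-identical copies. Time of collection, interval to lysis and order of dissection are not in the labels, and their part in these values was not tested.

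**Figure D3:**
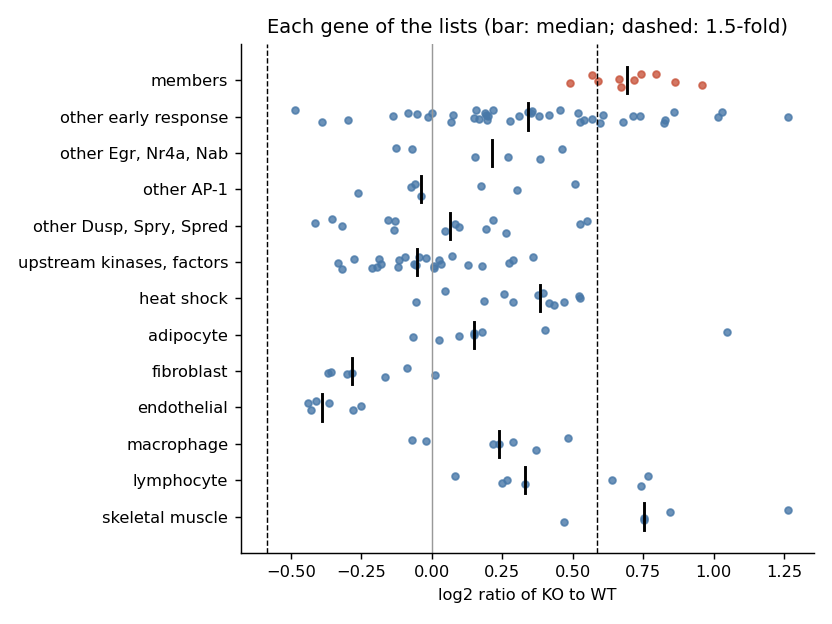
The log2 ratio of KO to WT (horizontal axis) of each listed gene averaging 10 normalized counts or more, by list, with the median as a bar and 1.5-fold as dashed lines. The 10 early genes lie between 0.49 and 0.96, other early response genes spread from -0.49 to 1.26, and the upstream kinases and factors centre on -0.05.

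The early genes are 1541 (*Ier2*) to 3783 bases (*Fosb*) long by the authors' list. All genes were put in 20 classes of length, and the median log2 ratio of the class was 0.11 for *Ier2* and -0.06 for *Fosb*, with the classes of the other 8 in between. After subtraction of these medians the 10 genes had a median of 0.69, and 7 were past 1.5-fold and higher, against 2.24% of all genes (0 lower, against 3.52%). *Atf3* was the gene that no longer passed, with 0.51. *Fosb* became the highest at 0.92, before *Junb* at 0.87. Subtraction of the median of genes of like level left 8 past the mark and higher, against 2.87% of all genes, and 0 lower, against 2.88%.

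The reference genes gave another picture. *Actb*, *Gapdh* and *Ppia*, the qPCR references of the study, had log2 ratios of 0.41, 0.40 and 0.40, and setting both genotypes to their geometric mean moved the median of the 15309 genes from 0.01 to -0.39. On this scale the 10 early genes were still higher in KO, with a median log2 ratio of 0.29 and a range from 0.09 (*Jund*) to 0.55 (*Junb*), but 0 passed 1.5-fold, against 0.490% of all genes that did so and were higher and 22.8% that were lower. Relative to the shifted median of all genes their distance was as before. Of the other early response genes 3 were then past the mark and higher, among them *Cxcl1* at 0.86, and 3 were past it and lower. The median of that list fell from 0.34 to -0.06 on this scale.

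**Figure D4:**
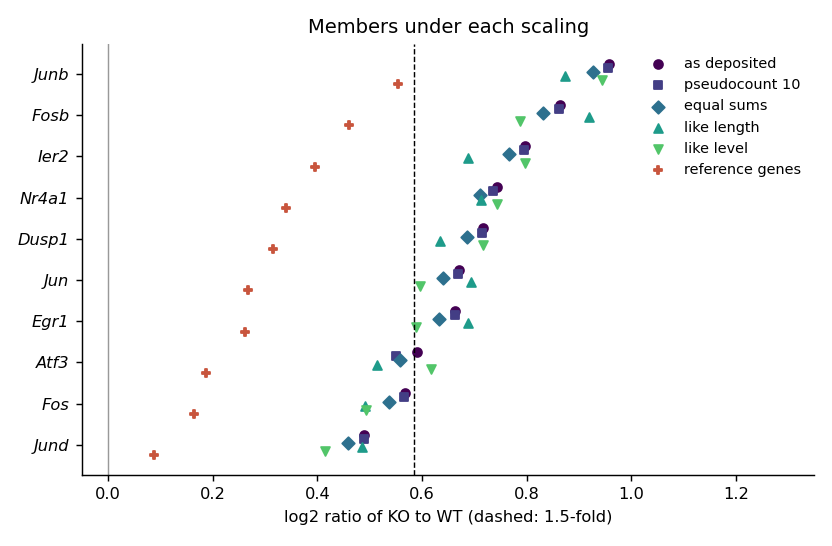
The log2 ratio of KO to WT (horizontal axis) of each early gene as deposited, with a pseudocount of 10, with equal sums, centred on genes of like length or like level, and scaled to *Actb*, *Gapdh* and *Ppia* (crosses). The crosses lie from 0.09 to 0.55, all left of the dashed line at 1.5-fold, and the other settings of each gene lie to their right. These ran from 0.79 to 0.92 for *Fosb*, and from 0.51 to 0.62 for *Atf3*, on both sides of the dashed line.

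The spread between libraries could be seen only in genes with few reads. Genes to which only 1 read was assigned over all libraries take 6 distinct values, which give the size factor of each library, from 0.916 to 1.04, and its genotype, since the column of the genotype holding the read is the higher one. From these, the whole reads of each library were worked out for low genes as the combination whose mean matched that of both listed values in all printed digits. The libraries are called a, b and c within a genotype and were not tied to sample numbers. For *Atf3*, the lowest of the 10 early genes, 80 combinations matched, so its reads per library were not determined, and the other 9 lie higher still.

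Among the wider list of early response genes, *Ptgs2*, *Npas4* and *Il6* had reads that could be worked out, and *Egr4* did among the relatives of *Egr1*. *Ptgs2* had 1, 7 and 10 reads in the WT libraries a, b and c, and 9, 30 and 10 in the KO libraries. In normalized counts this was 5.91 ± 4.55 in WT and 16.6 ± 11.9 in KO (SD, n = 3 each, two-sided exact permutation p = 0.2, smallest possible 0.1). The genotypes overlapped, and without KO library b the log2 ratio of the means fell from 1.49 to 0.73. *Npas4*, an activity-regulated factor, had 39, 45 and 30 reads in WT and 62, 48 and 20 in KO, or 37.2 ± 7.15 and 43.3 ± 19.5 normalized counts (SD, n = 3 each, exact permutation p = 0.7). Its KO libraries lay both above and below all WT libraries, and without KO library a its log2 ratio turned from 0.22 to -0.08. *Il6* had 2, 1 and 5 reads in WT and 4, 8 and 0 in KO (exact permutation p = 0.7), and *Egr4* had 1, 0 and 1 in WT and 1, 4 and 0 in KO (exact permutation p = 0.9). KO library b was the highest of all 6 in *Ptgs2*, *Il6* and *Egr4*, and KO library c was the lowest or joint lowest in *Npas4*, *Il6* and *Egr4*. With *Fosl1*, *Batf2* and *Dusp14*, 7 listed relatives and early response genes had known reads, and the exact permutation p of each was 1 after Benjamini-Hochberg adjustment over the 7. With 3 against 3 libraries no p under 0.1 was possible.

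**Figure D5:**
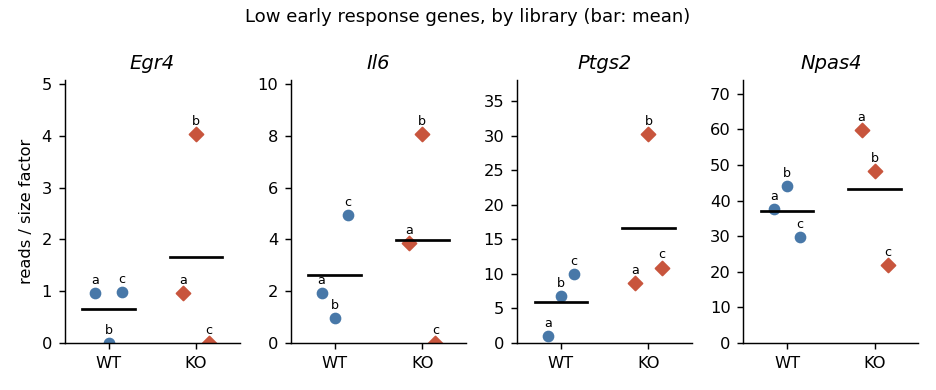
Reads divided by the size factor (vertical axes, from 0) of 4 early response genes with few reads, for the libraries a, b and c of WT (circles) and KO (diamonds), with the mean as a bar. In each panel the KO points overlap the WT points, and in *Ptgs2* KO library b at 30.3 stands far above the other 5, of which the highest is at 10.9.

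How far a ratio in this table can rest on few libraries was read from all 1128 genes with a mean between 10 and 25, each of which gave exactly 1 combination. The libraries of the genotypes did not overlap in 13.7% of them. Of 83 that were past 1.5-fold and higher in KO, 52 (62.7%) did not overlap, and of 100 past it and lower, 54.0% did not. In 21 of the 83, a single KO library held more than 50% of the KO counts. In 82 of the 83 the ratio of the deposited values was smaller than the ratio of the means of the reads, and the median log2 ratio was 0.77 for the deposited values and 1.10 for the means of the reads. For the 10 early genes, which have more reads, neither the overlap nor the ratio of the means of the reads is known.

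Values of cell type markers also differed between the genotypes, without a test. Of the 15309 genes, 51.2% were higher in KO, 2.78% were past 1.5-fold and higher and 3.12% past it and lower. Endothelial markers were lower in KO in 6 of 6 cases, with log2 ratios from -0.44 to -0.25 and a sum of 66792 normalized counts in WT and 52528 in KO, led by *Cdh5* with 23029 and 17863 and *Pecam1* with 18487 and 15218. Fibroblast and preadipocyte markers were lower in 6 of 7, with a median of -0.28, *Col1a1* having 297042 and 231621 and *Col3a1* 254949 and 209710. Lymphocyte markers were higher in 7 of 7, of which *Lck*, *Cd3e* and *Cd3g* were past 1.5-fold, and macrophage markers in 5 of 7, with medians of 0.33 and 0.24. *Cd79a* had 3383 and 4250, *Lyz2* 9262 and 11951 and *Csf1r* 4594 and 4379. Adipocyte markers had a median of 0.15, and *Lep* alone of the 8 was past 1.5-fold, with 4210 and 8703. Erythroid markers were higher in 5 of 5 with a median of 0.23, *Hba-a1* having 67035 and 74402 and *Hbb-bt* 7792 and 9167. Neutrophil markers were lower in 3 of 4 with a median of -0.24, *Ngp* having 123 and 86.8 and *S100a9* 112 and 96.2. *Krt10*, the sole keratinocyte marker with a mean of at least 10, had 79.4 and 72.4. The reads of *Krt5* lay in a pair of libraries, with 11 in WT library c, 21 in KO library a and 0 in the other 4. *Krt14*, named after its reads were seen, had 6 in WT library c, 11 in KO library a, 1 each in KO libraries b and c, and 0 in WT libraries a and b. *Krt1*, also named after its reads were seen, had 1, 0 and 1 in the WT libraries and 0, 1 and 4 in the KO libraries. Skeletal muscle markers were higher in 5 of 5, 4 of them past 1.5-fold, and summed to 415 in WT and 809 in KO, with *Acta1* at 171 and 410, *Tnnt3* at 90.5 and 152 and *Tnnc2* at 62.0 and 111. Of these *Ckm* had 2, 3 and 2 reads in the WT libraries and 215, 1 and 6 in the KO libraries. KO library a, which also held the most reads of *Krt5* and *Krt14* but 0 of *Krt1*, thus held nearly all reads of *Ckm*. Without that library the log2 ratio of the means of *Ckm* fell from 4.97 to 0.73. The muscle sums hold the deposited values of *Ckm*, 27.5 in WT and 46.4 in KO, whereas the means of its reads were 2.28 and 71.6. The fibre gene *Myh4*, named after its reads were seen, had 1 read, in KO library a. Centred on genes of like length, the medians were 0.17 for lymphocyte, 0.09 for macrophage, 0.07 for erythroid and 0.58 for muscle markers. Past 1.5-fold and higher were then 1 lymphocyte and 2 muscle markers. Scaled to the reference genes, these medians were -0.07, -0.16, -0.17 and 0.35. The medians of endothelial and fibroblast markers stayed below 0, at -0.30 and -0.22 by length and -0.79 and -0.68 by reference genes. The part of these cell types in the values of the early genes was not tested.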

How the data were processed

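RNA was extracted with TRIzol from iAT of 3 WT and 3 KO samples at postnatal day 6. The submitters' processing notes name Bowtie2, RSEM and DESeq2, without versions. The genome build, annotation and strand setting were not given in the sources used here. The authors deposited 1 signal value per gene and genotype, on the scale of reads normalized for library size, and the gene length in bases. These values lie closer together than the means of the reads in 82 of 83 low genes past 1.5-fold and higher in KO, which understates their fold, and for the early genes this could not be checked. The authors' fold changes and p-values, and a second table that repeats rows chosen on these, were not used.

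Log2 ratios of KO to WT were computed from the 2 deposited values without a pseudocount (Python 3.11.15, numpy 2.4.6, pandas 2.3.3), and 1.5-fold was the mark for genes with a mean of at least 10. No test between genotypes was run for the early genes, since no value per sample was at hand for them. Reads of low genes were searched over all whole-number combinations of the 6 libraries, up to a mean of 25 for all genes and 60 for listed genes. Tested on data simulated from genes with a mean between 10 and 25, the search found the true reads as the only match in 200 of 200 genes. The simulation did not reach the mean of *Npas4* (40.3) or the limit of 60 for listed genes. For listed low genes an exact permutation test was run (scipy 1.17.1), and p-values measure only the spread between libraries, which may be technical. All 10 genes are named. The reference genes and the targeted gene are all named too. From every other list the largest ratios past 1.5-fold (at most 6) and the 2 highest levels are named. Other names are marked as chosen afterwards, stand beside a range they bound, overlap an early gene, or are listed low genes whose reads were worked out. The genes and lists were chosen with earlier results of these data known.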

Additional observations from a re-analysis of the deposited data

How the results depend on the processing

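The median log2 ratio of the 10 early genes was 0.69, and between 0.66 and 0.69 with a pseudocount of 1 or 10, centred on the median gene, scaled to equal sums, or centred on genes of like length or level. The count past 1.5-fold and higher in KO was 7 or 8 under these settings and with no minimum or a minimum mean of 100. Scaled to *Actb*, *Gapdh* and *Ppia* the median was 0.29 and the count 0, and at 2-fold the count was also 0. None was past 1.5-fold and lower under any setting tried, and all 10 ratios stayed above 0. By gene, ratios moved by more than their counting error in 6 of the 10 with like length and 5 with like level. With equal sums 4 moved so, and with the reference genes all 10. Without division by gene length 5 of the 10 took another place in the order of levels in WT. For *Npas4* the log2 ratio of the means of reads reversed to -0.081 without KO library a. Leaving out a library in turn, a choice made after seeing the data, gave 0.73 to 2.09 for *Ptgs2*, -0.081 to 0.54 for *Npas4* and 0.73 to 5.55 for *Ckm*. For the 10 early genes no library could be left out. No paired analysis was possible because the table holds no value per sample and the libraries found from single reads carry no replicate number. The early genes lack replicate values, and their counting error is given in the report for scale only.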
